A study of Mus musculus with 10 samples.

Results

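The 39 genes described here are interferon-stimulated genes, the genes that cells switch on when interferon binds its receptors. They were listed by name, with no threshold on a measured value, and found through their Ensembl mouse gene IDs in the GENCODE M21 annotation of the GRCm38 genome. The choice was made with earlier results of these data known, so differences between the list and all genes are descriptive only. Each of the 39 symbols matched 1 of the 49671 gene IDs in the count tables, all 39 were among the 19757 genes abundant enough to test, and every member had at least 1 count in every library.

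The study sequenced RNA in bulk from mouse mammary gland cells sorted by flow cytometry into 5 populations of 2 libraries each, 10 libraries in all. The control populations, luminal cells (LC) and basal cells (BC), had no treatment in their labels; the second library of each was labelled WT, and the first carried no genotype label. The populations named for Tomato, a red fluorescent reporter, were labelled luminal cell ablation, and comprised luminal (TLC), basal (TBC) and hybrid (THC) cells. Strain, age, the promoter behind the reporter and the ablating agent were not given in the sources used here. Each comparison of TBC, THC or TLC with BC or LC therefore joins ablation with whatever separates Tomato-marked from control mice, and these cannot be told apart. Replicate 1 libraries were numbered S44 to S48 and replicate 2 libraries S80 to S84, and the labels name no animal or culture for a library, so the p-values below measure only the spread between libraries, which may be technical.

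Between 2757773 (THC, replicate 1) and 13685674 (LC, replicate 2) counts per library fell in genes. Summed over 5 basal markers, BC stood at 6831 and 10260 CPM (counts scaled to each library's total in tested genes after its TMM normalization factor), and LC at 128 and 52.0 CPM. Summed over 5 luminal markers, BC stood at 1236 and 900 CPM, and LC at 7770 and 5972 CPM. THC lay between, with 4032 and 3360 CPM of basal and 3325 and 2325 CPM of luminal markers. TBC stood at 11223 and 8742 CPM of basal and 953 and 631 CPM of luminal markers. TLC stood at 1013 and 613 CPM of basal markers, above LC. Its luminal markers, at 4549 and 3639 CPM, lay below LC. The markers thus went with the labels in direction, but TLC held more basal marker RNA than LC. Macrophage and myeloid markers were present in every library, with summed levels of 47.7 to 372 CPM over 9 genes and none at 0, whereas lymphocyte markers summed to 0.877 to 7.36 CPM with 2 to 5 of 8 genes at 0.

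Interferons are secreted proteins that bind receptors coupled to JAK kinases, and type I and type III interferons activate a complex that includes Stat2 and Irf9 and binds the interferon-stimulated response element in promoters, while type II interferon acts mainly through gamma-activated sites. The target genes include sensors of foreign RNA and DNA, transcription factors that extend the response, the ubiquitin-like protein Isg15 with its enzymes, and effectors that block the steps of viral growth. Many of them are also expressed at a low level without infection, and luminal and basal mammary cells are the inner and outer layers of the same epithelium.

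Promoter sequence shows how closely the members follow these elements. RefSeq promoter windows of 300 bases (250 before to 50 after a start site, build GRCm38.p6) were matched by symbol for 28 of the 39 members, in 32 windows, and both strands were searched. The response element core, GAAA followed by any 2 bases and GAAA again, was in 46.9% of the members' windows and in 3.44% of all 32851 windows. The gamma-activated site core TTCNNNGAA was in 21.9% of the members' windows and in 8.30% of all windows. Of the 28 members, 11 held only the response element core, 3 only the gamma-activated site core, 4 both (Bst2, Eif2ak2, Gbp7 and Oas1a) and 10 neither. Irf1 was the only transcription factor to hold the gamma-activated site core alone, and Dtx3l was among the 10 with neither. The stretches below are examples from members that hold a core. They come from a sensor (Ifih1), an effector with both cores (Bst2), Isg15, Irf1 and 3 neighbouring genes of the IFIT family. They are written 5′ to 3′ on the gene's own strand, with matches in capitals; TTTC, any 2 bases and TTTC is the response element core read on the opposite strand.
Ifih1: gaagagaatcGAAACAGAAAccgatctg
Bst2: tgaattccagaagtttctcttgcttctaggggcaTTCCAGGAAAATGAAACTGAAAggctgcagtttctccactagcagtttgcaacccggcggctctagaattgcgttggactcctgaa
Isg15: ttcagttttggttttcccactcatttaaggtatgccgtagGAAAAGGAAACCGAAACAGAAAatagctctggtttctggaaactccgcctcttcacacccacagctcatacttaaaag
Irf1: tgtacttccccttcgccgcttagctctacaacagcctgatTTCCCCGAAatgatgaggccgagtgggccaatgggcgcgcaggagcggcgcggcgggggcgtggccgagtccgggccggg
Ifit1: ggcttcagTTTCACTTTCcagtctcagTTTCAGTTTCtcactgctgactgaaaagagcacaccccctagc
Ifit3: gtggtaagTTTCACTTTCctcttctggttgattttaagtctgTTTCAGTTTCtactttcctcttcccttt
Ifit3b: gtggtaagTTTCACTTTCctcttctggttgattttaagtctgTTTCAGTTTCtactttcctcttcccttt

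The Ifih1 stretch lies on the minus strand at chr2:62646206-62646233, and its match begins 32 bases after the start site, inside the transcribed part of the gene. Bst2 (chr8:71537523-71537642, minus strand) carries a gamma-activated site core 136 bases before the start that overlaps the first of 2 response element cores, which overlap each other. Isg15 (chr4:156200819-156200936, minus strand) carries 3 overlapping cores, the first 78 bases before the start. Irf1 (chr11:53769884-53770003, plus strand) has its gamma-activated site core 90 bases before the start. Ifit1 (chr19:34640777-34640846), Ifit3 (chr19:34583365-34583434) and Ifit3b (chr19:34607761-34607830) lie on the plus strand of chromosome 19 and hold 2 cores each. The printed Ifit3 and Ifit3b stretches were identical in 70 of 70 bases. A match of letters is a description of the window and not evidence of binding. Among the 28 members with a window, 4 of the 15 with the response element core and 4 of the 13 without it were higher in LC than in BC by the test described next. Of all tested genes, 11.5% were higher in that comparison.

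Per kilobase of exon, the scale on which genes can be compared with each other, the mean level over the 10 libraries was highest for Irf1 (60.3 CPM per kb), Ifi27 (30.1), Bst2 (23.8), Gbp2 (18.7) and Dtx3l (17.3). It was lowest for Mx1 (0.445), Oas3 (0.727) and Ifit3b (0.840). The mean log2 CPM of the 39 members was 4.14 and 4.32 in the LC libraries, 3.36 and 3.25 in BC, 4.41 and 3.77 in TLC, 5.07 and 4.09 in THC and 4.40 and 3.19 in TBC. The 2 BC libraries and the 2 LC libraries each lay close together and did not overlap, whereas the replicate 1 library lay above the replicate 2 library in TBC, THC and TLC. By population the mean was 3.30 ± 0.08 in BC, 3.80 ± 0.86 in TBC, 4.09 ± 0.46 in TLC, 4.23 ± 0.13 in LC and 4.58 ± 0.70 in THC (SD, n = 2). Neighbours in that order overlapped in every case, and both BC libraries lay below both libraries of LC, TLC and THC.

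**Figure D1:**
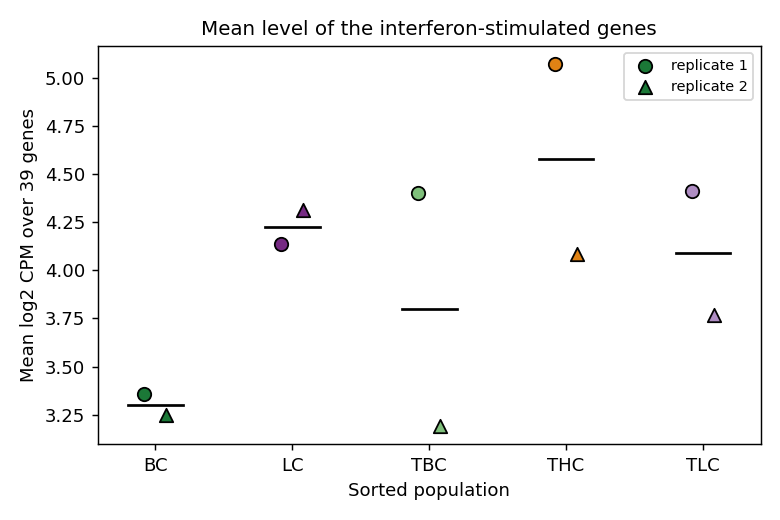
Mean log2 CPM of the 39 interferon-stimulated genes (vertical axis) in each library of the 5 sorted populations (horizontal axis), with circles for replicate 1, triangles for replicate 2 and a line at the mean. The LC libraries (4.14 and 4.32) lie above the BC libraries (3.36 and 3.25), and the TBC libraries (4.40 and 3.19) span most of the range.

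The gap between replicates was a property of most members in the 3 Tomato populations. In TBC 38 of 39 members were higher in replicate 1 than in replicate 2, all but Ifit2, with a median gap of 1.09 on the log2 scale. In THC 37 of 39 were higher in replicate 1, all but Ifih1 and Cmpk2, with a median gap of 0.81, and in TLC 34 of 39, with a median gap of 0.59. In BC and LC the counts were 23 and 14 of 39, with median gaps of 0.09 and -0.16. Of all tested genes, 45.6% to 49.0% were higher in replicate 1, depending on the population. The THC replicate 1 library held the highest level of 23 of the 39 members and the TBC replicate 2 library the lowest level of 14. THC replicate 1 was also the shallowest library, and 3 counts there equal 1.16 CPM. Its share of reads that did not map uniquely was 43.0%, against 14.6% to 22.4% in the other libraries, and its share outside genes was the lowest, 12.6%. Myeloid markers summed to 80.04 and 55.05 CPM in the first and second TBC libraries, 289 and 187 in THC, and 113 and 122 in TLC. The part of these measures in the gap was not tested.

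**Figure D2:**
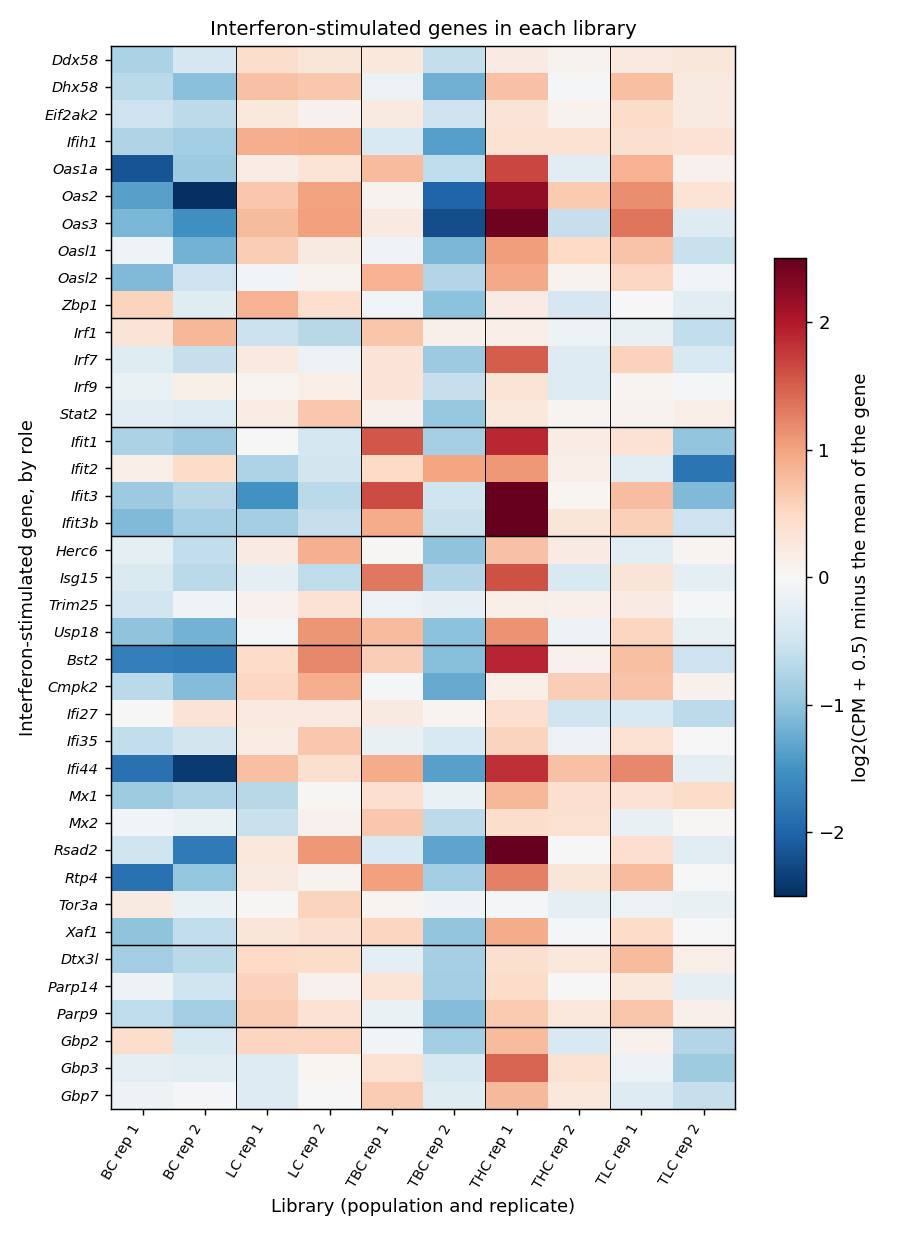
Level of each of the 39 members (rows, grouped by role) in each of the 10 libraries (columns), coloured by log2(CPM + 0.5) minus the gene's mean over libraries, with colours limited at 2.5 in either direction. The replicate 1 libraries of TBC, THC and TLC are redder than their replicate 2 libraries for 38, 37 and 34 members, and both BC libraries are blue for most members.

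Control luminal cells were compared with control basal cells to describe how the layers differed without ablation. Fold changes come from edgeR's quasi-likelihood test fitted to all 10 libraries, with p-values adjusted by Benjamini-Hochberg over 19757 genes and a threshold of 0.05. Of the 39 members 11 were higher in LC (28.2%), 1 was lower and 27 did not pass, where 24% of all tested genes passed in either direction, 11.5% higher and 12.5% lower. The members' median log2 fold change was 0.79, beside -0.04 for all tested genes, and 34 of 39 were positive. The LC libraries did not overlap the BC libraries for 27 members that were higher and 2 that were lower (Ifit2 and Irf1), where 30% and 30.3% of all tested genes were separated in those directions. Myeloid markers summed to 372 and 206 CPM in LC and 131 and 47.7 CPM in BC, but Cd14 alone made up 339 and 179.8 CPM in LC and 73.9 and 22.9 CPM in BC. The other 8 markers summed to 33.1 and 25.99 CPM in LC and 56.6 and 24.8 CPM in BC, and thus overlapped. In sorted bulk RNA a difference in the number of cells of a type and a difference in RNA per cell cannot be told apart.

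The sensors of foreign nucleic acid had the most members higher in LC by number, 5 of 10, beside 11.5% of all tested genes. Their median log2 fold change was 1.502, and all 10 were positive. The smaller PARP and DTX3L class had 2 of 3 members higher. Ifih1 (chr2:62595798-62646255) encodes MDA5, a sensor of long double-stranded RNA. It was measured at 93.2 and 94.2 CPM in LC, 29.2 and 27.4 in BC, 65.4 and 63.9 in TLC, 64.3 and 64.9 in THC and 37.7 and 18.8 in TBC. Every LC, THC and TLC library lay above every BC and TBC library, and the LC level was 3.32-fold that of BC (log2 1.73, SE 0.28, adjusted p = 0.00093). Ddx58 encodes RIG-I, a sensor of short RNA with a triphosphate end, and stood at 115 and 105 CPM in LC, 49.2 and 63.3 in BC, 101 and 103 in TLC, 98.4 and 90.7 in THC and 102 and 56.5 in TBC. It was higher in LC by 0.96 on the log2 scale (SE 0.26, adjusted p = 0.020), with the first TBC library close to LC and the second within the range of BC. Dhx58 encodes LGP2, a relative of both that lacks their signalling domains. Its levels were 12.9 and 12.2 CPM in LC, 4.51 and 3.40 in BC, 13.0 and 8.83 in TLC, 12.8 and 7.22 in THC and 6.79 and 3.01 in TBC, with a log2 fold change of 1.68 in LC (SE 0.45, adjusted p = 0.019). All 3 genes of this helicase family were therefore higher in LC.

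Eif2ak2 encodes PKR, a kinase that halts translation when it binds double-stranded RNA. It stood at 63.2 and 56.5 CPM in LC, 36.6 and 33.4 in BC, 72.1 and 61.5 in TLC, 66.2 and 55.7 in THC and 61.7 and 36.9 in TBC. The LC difference was 0.77 on the log2 scale (SE 0.25, adjusted p = 0.045), close to the threshold, and it passed in 7 of 18 alternative settings. Oas2 encodes a synthetase of 2-5A, the second messenger that activates RNase L. It was low in BC, at 1.76 and 0.340 CPM, and stood at 8.78 and 11.2 in LC, 12.5 and 6.82 in TLC, 26.3 and 8.57 in THC and 5.68 and 0.953 in TBC. The LC level was 11.3-fold that of BC (log2 3.49, SE 1.003, adjusted p = 0.031), and it did not pass without the second BC library or either LC library. The other OAS genes and Zbp1, a sensor of Z-form nucleic acid, did not pass the test. Oas1a shared 40.9% of its 100-base transcript stretches with other genes, chiefly Oas1g, so its counts are uncertain.

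Among the 4 transcription factors, Irf1 was the only member of the whole list that passed the threshold as lower in LC. Irf1 is induced by type II interferon and by inflammatory signals, and was the most abundant member, with 156 and 138 CPM in LC, 284 and 402 in BC, 199 and 147 in TLC, 254 and 206 in THC and 367 and 246 in TBC. Both luminal populations lay below every BC, TBC and THC library, and LC was 2.33-fold below BC (log2 -1.22, SE 0.27, adjusted p = 0.0070). Leaving out the second BC library ended this call. Irf9, the DNA-binding subunit of the type I complex, stood at 55.3 and 59.5 CPM in LC, 47.2 and 58.4 in BC, 55.4 and 51.3 in TLC, 67.0 and 41.6 in THC and 66.0 and 35.3 in TBC. Its populations overlapped throughout. Stat2 and Irf7 had positive fold changes in LC and did not pass.

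None of the 4 IFIT genes, whose products bind foreign RNA ends, passed between LC and BC, and their median log2 fold change was 0.08. Ifit1 stood at 10.7 and 7.90 CPM in LC, 6.08 and 5.53 in BC, 14.0 and 5.19 in TLC, 41.1 and 12.4 in THC and 32.7 and 5.86 in TBC. Ifit2 stood at 5.09 and 6.46 in LC, 10.2 and 12.7 in BC, 7.37 and 2.18 in TLC, 19.8 and 10.3 in THC and 12.9 and 18.3 in TBC. Ifit1 was highest in the first TBC and THC libraries, whereas Ifit2 was lower in all luminal libraries than in any other. Ifit3 and Ifit3b had 2 to 39 and 1 to 23 counts per library and share 31.7% and 27.4% of their transcript stretches, mostly with each other, so their split between the copies is uncertain.

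The ISG15 system, which attaches and removes the ubiquitin-like Isg15, had 0 of 4 members past the threshold and 4 of 4 with a positive fold change in LC (median 0.78). Trim25, a ubiquitin ligase that acts on RIG-I, stood at 99.2 and 117 CPM in LC, 65.3 and 86.5 in BC, 106 and 88.2 in TLC, 103 and 99.6 in THC and 82.1 and 78.9 in TBC. Herc6, the mouse ligase for Isg15, stood at 15.3 and 24.6 in LC, 10.98 and 8.42 in BC, 10.7 and 13.8 in TLC, 22.1 and 15.3 in THC and 13.4 and 6.30 in TBC. Both genes were separated between BC and LC, but with adjusted p-values of 0.10 and 0.080 in edgeR's test. Isg15 itself was scarce, at 1.83 to 11.2 CPM over all libraries, and did not differ beyond its spread between LC and BC (log2 0.11, SE 0.84).

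Among the 11 antiviral effectors 4 were higher in LC (36.4%, beside 11.5% of all tested genes), and the class had a median log2 fold change of 1.20. Bst2 encodes tetherin, which holds budding virus at the cell surface. It was measured at 21.9 and 36.9 CPM in LC, 4.51 and 4.34 in BC, 26.8 and 10.9 in TLC, 60.8 and 16.9 in THC and 24.6 and 7.26 in TBC. All other libraries lay above BC, and LC was 6.66-fold above it (log2 2.74, SE 0.79, adjusted p = 0.036). Ifi44, an interferon-induced protein, stood at 28.7 and 22.5 CPM in LC, 4.31 and 2.81 in BC, 39.8 and 14.5 in TLC, 61.2 and 28.4 in THC and 32.7 and 6.30 in TBC. It was 7.40-fold higher in LC (log2 2.89, SE 0.85, adjusted p = 0.039), and the calls of Bst2 and Ifi44 both ended when any BC or LC library was left out.

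Cmpk2, a mitochondrial nucleotide kinase, stood at 9.97 and 13.3 CPM in LC, 4.12 and 2.98 in BC, 11.6 and 7.37 in TLC, 7.75 and 10.8 in THC and 6.63 and 2.57 in TBC. Its log2 fold change in LC was 1.74 (SE 0.48, adjusted p = 0.020). Ifi35 stood at 28.1 and 39.3 CPM in LC, 15.9 and 17.9 in BC, 32.3 and 24.6 in TLC, 36.4 and 22.3 in THC and 21.5 and 18.8 in TBC, with a log2 fold change of 0.996 (SE 0.29, adjusted p = 0.029). For Cmpk2 and Ifi35 both LC libraries lay above both BC libraries; 16.8% of the Ifi35 exon bases overlap a gene on the opposite strand, and the strand setting of the counting is not given in the sources used here. Ifi27 had overlapping LC and BC libraries, at 50.8 and 51.0 CPM in LC, 42.9 and 53.6 in BC, 33.0 and 27.1 in TLC, 57.7 and 30.2 in THC and 49.9 and 45.3 in TBC. Tor3a, an ATPase of the endoplasmic reticulum, stood at 28.7 and 41.1 in LC, 32.7 and 24.8 in BC, 25.3 and 24.5 in TLC, 27.5 and 23.6 in THC and 29.2 and 26.2 in TBC, and its LC and BC libraries overlapped.

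Parp9 and Dtx3l encode partners in 1 complex of an ADP-ribosyltransferase-like protein and a ubiquitin ligase, and sit head to head on chromosome 16 with 458 shared exon bases on opposite strands. Dtx3l (chr16:35926511-35939151) stood at 129 and 126 CPM in LC, 50.4 and 57.7 in BC, 159.6 and 104 in TLC, 122 and 109.9 in THC and 78.5 and 51.7 in TBC. Parp9 stood at 75.6 and 62.5 in LC, 31.0 and 26.2 in BC, 77.9 and 52.5 in TLC, 76.7 and 58.2 in THC and 43.1 and 22.6 in TBC. For both genes every LC, THC and TLC library lay above every BC and TBC library. The LC difference was 1.24 for Dtx3l (SE 0.26, adjusted p = 0.0046) and 1.28 for Parp9 (SE 0.32, adjusted p = 0.012) on the log2 scale. Parp14, the third gene of this class, stood at 135 and 97.7 CPM in LC, 82.5 and 63.4 in BC, 108 and 75.8 in TLC, 124 and 91.3 in THC and 114 and 49.0 in TBC, and did not pass.

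The 3 guanylate-binding proteins, GTPases that act on the vacuoles of intracellular pathogens, had 0 of 3 members past the threshold between LC and BC (median log2 fold change 0.14). Gbp2 stood at 63.7 and 63.9 CPM in LC, 59.97 and 33.8 in BC, 47.4 and 26.1 in TLC, 76.3 and 33.5 in THC and 41.7 and 24.04 in TBC. Gbp7 stood at 26.3 and 33.0 in LC, 30.2 and 32.1 in BC, 26.5 and 22.02 in TLC, 58.9 and 39.9 in THC and 51.9 and 26.6 in TBC. Gbp7 was higher in both THC libraries than in both TLC libraries, whereas the 2 THC libraries of Gbp2 lay on either side of most others.

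**Figure D3:**
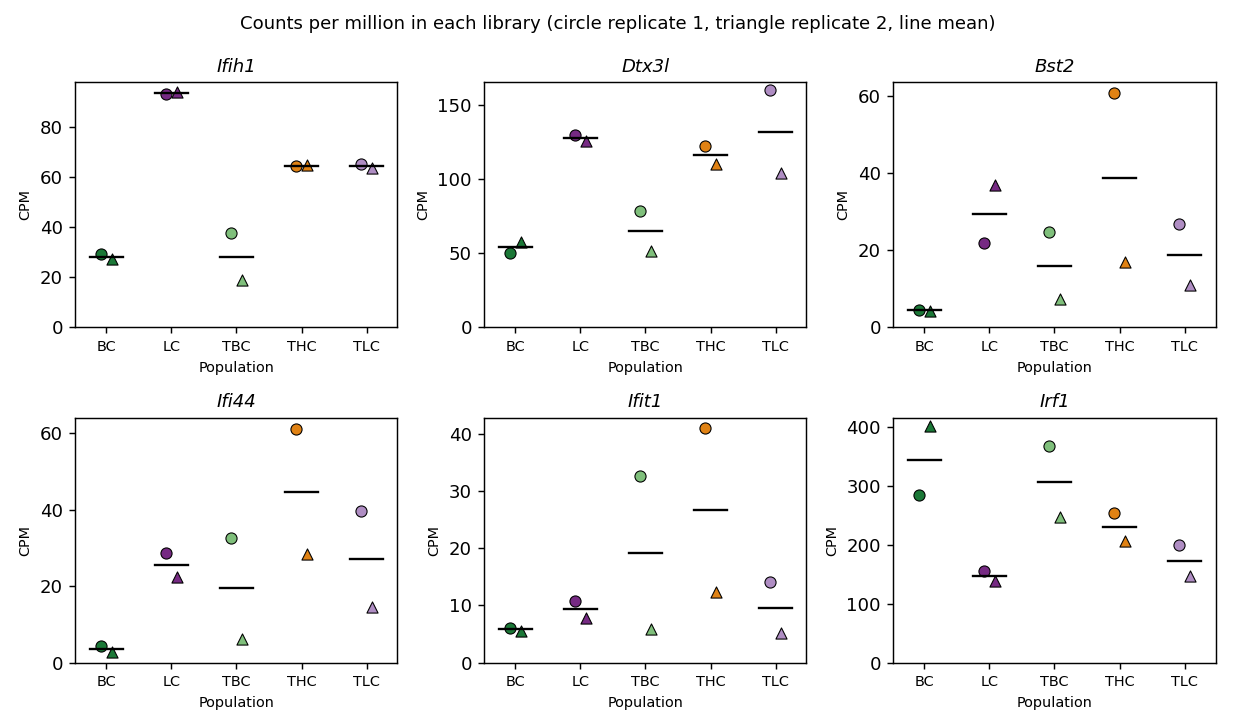
CPM (vertical axes, from 0) of Ifih1, Dtx3l, Bst2, Ifi44, Ifit1 and Irf1 in each library of the 5 populations, with circles for replicate 1, triangles for replicate 2 and lines at the means. Ifih1 and Dtx3l are separated between the luminal or hybrid libraries and the basal ones, Irf1 is lowest in LC and TLC, and Bst2, Ifi44 and Ifit1 are highest in the first THC library.

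Each call between LC and BC was recomputed under 18 alternative settings. Dtx3l and Ifih1 passed in 18 of 18, Irf1 in 17, and Cmpk2 and Parp9 in 16. Ddx58, Dhx58 and Ifi35 passed in 15 each. Besides those named above, the calls ended without the first BC library for Ddx58 and Ifi35, without the second BC library for Cmpk2, Parp9, Dhx58 and Ifi35, without the first LC library for Ddx58, Dhx58 and Parp9, and without the second LC library for Ddx58, Dhx58, Cmpk2 and Ifi35. The Bst2 and Oas2 calls also ended without the second TLC library, the Ifi44 call without either THC library, and the Eif2ak2 call without any BC, LC or THC library or the second TLC library. The number of members called fell to 7 without the first BC library, 3 without the second BC library, 6 without the first LC library and 4 without the second LC library.

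The same comparison was made within ablated glands, between TLC and TBC. Of the 39 members 2 were higher (Ifih1 and Dtx3l), 1 was lower (Ifit2) and 36 did not pass, where 13.6% of all tested genes passed, 5.59% higher and 8.02% lower. The members' share of 7.69% was thus below that of all tested genes. Ifih1 was 2.31-fold higher (log2 1.21, SE 0.28, adjusted p = 0.013) and Dtx3l 2.03-fold higher (log2 1.02, SE 0.26, adjusted p = 0.021). Ifit2 was 3.43-fold lower in TLC (log2 -1.78, SE 0.52, adjusted p = 0.043). The members' median log2 fold change was 0.32 (all tested genes 0.03), but it was 0.96 without the first TBC library, -0.25 without the second TBC library and -0.11 without the first TLC library. Ifih1 and Dtx3l did not pass without the second TBC library or the first TLC library, nor Ifih1 without the second TLC library. Ifit2 did not pass without either BC library, either TBC library or the second TLC library. Leaving out the first or the second TLC library left 1 member called.

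Hybrid cells were compared with control basal cells and with both Tomato layers. Against BC, 5 of 39 members were higher in THC (12.8%) and none was lower, where 7.71% of all tested genes passed, 5% higher and 2.72% lower in THC. The median log2 fold change of the members was 1.28, beside 0.01 for all tested genes. The libraries did not overlap for 30 members that were higher and 1 that was lower (Irf1), where 27.9% and 26% of all tested genes were separated. Oas2 was 18.7-fold higher (log2 4.23, SE 1.02, adjusted p = 0.037) and Ifi44 12.7-fold higher (log2 3.67, SE 0.87, adjusted p = 0.040). Ifih1 (log2 1.19, SE 0.28, adjusted p = 0.027), Parp9 (1.23, SE 0.32, adjusted p = 0.039) and Dtx3l (1.10, SE 0.26, adjusted p = 0.027) made up the rest.

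The IFIT class had the highest median of any class between THC and BC, 2.78 on the log2 scale, with 4 of 4 positive and 0 of 4 past the threshold. Rsad2 encodes viperin, an enzyme that makes a chain-terminating nucleotide, and stood at 2.55 and 0.765 CPM in BC and at 24.02 and 3.78 in THC. Its log2 difference of 3.10 (SE 0.94) had an adjusted p of 0.076 in edgeR's test, and its 2 THC libraries differed from each other more than the lower one did from BC. Leaving out either BC or either THC library ended all 5 calls, although 4 other members passed without the second THC library (Bst2, Ifit3b, Oas1a and Rsad2). The count was 8 when the first or the second TBC library was left out, 3 when the first or the second LC library was, and 2 without the second TLC library. The members' median was 0.80 without the first THC library and 1.37 without the second. Endothelial markers summed to 537 and 518 CPM in THC and 370 and 86.2 in BC, myeloid markers to 289 and 187 in THC and 131 and 47.7 in BC, and fibroblast markers to 837 and 1900 in THC and 292 and 239 in BC. Within the fibroblast list, Col1a1, Col1a2, Col3a1 and Lum were higher in both THC libraries than in BC. Pdgfra was lower, at 24.8 and 31.0 CPM in THC and 69.8 and 51.4 in BC. Dcn overlapped, at 57.7 and 152 CPM in THC and 119 and 85.3 in BC. The part of all these markers in the THC comparisons was not tested.

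Against TBC, 1 member was higher in THC, Ifih1 (2.31-fold, log2 1.21, SE 0.28, adjusted p = 0.037), where 3.72% of all tested genes passed, 2.57% higher and 1.14% lower. In all, 35 of 39 were positive, with a median of 0.57 (all tested genes 0.03). That median was 1.51 without the first TBC library, 0.11 without the first THC library and 0.15 without the second TBC library. Ifih1 did not pass without the second TBC library, either THC library or either TLC library. Against TLC, none of the 39 passed by edgeR (smallest adjusted p 0.13), where 1.61% of all tested genes passed, 1.52% higher and 0.0911% lower. An unadjusted p under 0.05 was found for 3 members, all higher in THC (Ifit2, Gbp3 and Gbp7), and for 9.28% of all tested genes in that direction, and DESeq2 called 1 member (Gbp3). The libraries were separated for 6 members that were higher and 1 that was lower, where 21.7% and 16.5% of all tested genes were. Gbp3 stood at 38.4 and 17.9 CPM in THC and 12.3 and 7.10 in TLC, and at 11.6 and 11.1 in BC, 10.7 and 14.1 in LC, and 17.8 and 10.1 in TBC. The median over members was 0.39 with all libraries and -0.12 without the first THC library.

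**Figure D4:**
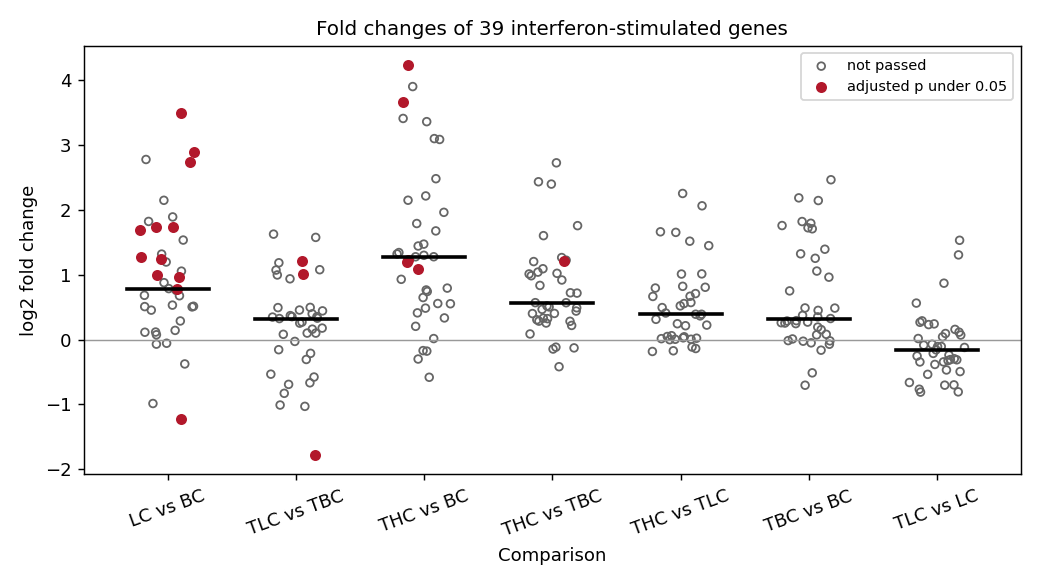
Log2 fold change (vertical axis) of each of the 39 members in 7 comparisons (horizontal axis), with filled points for adjusted p under 0.05, open points for the rest and a line at the median. The medians run from -0.16 (TLC against LC) to 1.28 (THC against BC), and filled points are most frequent in LC against BC (12 of 39).

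Tomato cells of the ablated glands were compared with control cells of the same layer. Between TBC and BC no member passed by edgeR (smallest adjusted p 0.49), and 0% of all tested genes did. DESeq2 called 1 member, Ifi44. At an unadjusted p under 0.05 there were 4 members, all higher in TBC (Mx1, Ifi44, Bst2 and Rtp4), where 8.73% of all tested genes had such a p, 4.57% in that direction. The TBC libraries lay above the BC libraries for 10 members and below for 0, where 20% and 21.4% of all tested genes were so separated. The members' median was 0.33 (all tested genes -0.03) with 31 of 39 positive, and it turned to -0.14 without the first TBC library and was 0.80 without the second. The IFIT class again had the highest median, 1.93. Rtp4, a chaperone of receptors that is interferon-induced in many tissues, stood at 3.53 and 6.97 CPM in BC and 29.0 and 7.55 in TBC. Both TBC values were above both BC values, but the second by a margin smaller than the spread within BC.

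Between TLC and LC no member passed by edgeR either (smallest adjusted p 0.13), where 8.22% of all tested genes did, 4.46% higher and 3.77% lower. The unadjusted p was under 0.05 for 1 member, where 22.2% of all tested genes had such a p. This was Ifi27, which was lower in TLC (33.0 and 27.1 CPM against 50.8 and 51.0 in LC). DESeq2 called none. The libraries were separated for 3 members that were higher (Ifit3b, Isg15 and Mx1) and 8 that were lower (Stat2, Ddx58, Ifih1, Ifi27, Zbp1, Gbp2, Herc6 and Tor3a), where 24.3% and 24.9% of all tested genes were. The median was -0.16 (all tested genes 0.00), -0.47 without the first TLC library and 0.03 without the second.

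Averaged over the layers, the difference between Tomato and control cells passed for 0 of 39 members, where 7.19% of all tested genes passed, and 3 had an unadjusted p under 0.05 (Mx1, Rtp4 and Zbp1). The difference between the layers in that response, TLC against LC minus TBC against BC, was negative for 38 of 39 members, all but Irf1, with a median of -0.62 (all tested genes 0.05). None passed by edgeR (smallest adjusted p 0.46, with 0.911% of all tested genes called), and only Bst2 had an unadjusted p under 0.05 (log2 -2.48). The median of this difference was 0.06 in the fit without the first TBC library, so it changed sign there. Among replicate 2 libraries alone, the members' median was -0.56 for TLC against LC and -0.16 for TBC against BC. Among replicate 1 libraries these medians were 0.20 and 0.64, so TLC against LC had the lower median in either set.

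Taking only libraries of the same number set gave different pictures for these comparisons. In the S44 to S48 set, 36 of 39 members were higher in TBC than in BC (median 0.64), and 15 of them by more than 1 on the log2 scale, where 6.31% of all tested genes were. In the S80 to S84 set 16 of 39 were higher (median -0.16). For TLC against LC the counts were 30 of 39 (median 0.20) in the first set and 5 of 39 (median -0.56) in the second. By contrast LC lay above BC for 32 and 36 of 39 members, with medians of 0.78 and 0.92, and THC above BC for 36 and 32, with medians of 1.27 and 0.69. THC also lay above TBC for 35 of 39 members in either set. TLC lay above TBC for 18 of 39 members in the first set (median -0.04) and 31 of 39 in the second (median 0.71). Both sets thus had most members higher in LC and in THC than in BC, whereas the medians differed in sign between the sets for Tomato against control cells within a layer and for TLC against TBC. The labels do not say what the number sets stand for.

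**Figure D5:**
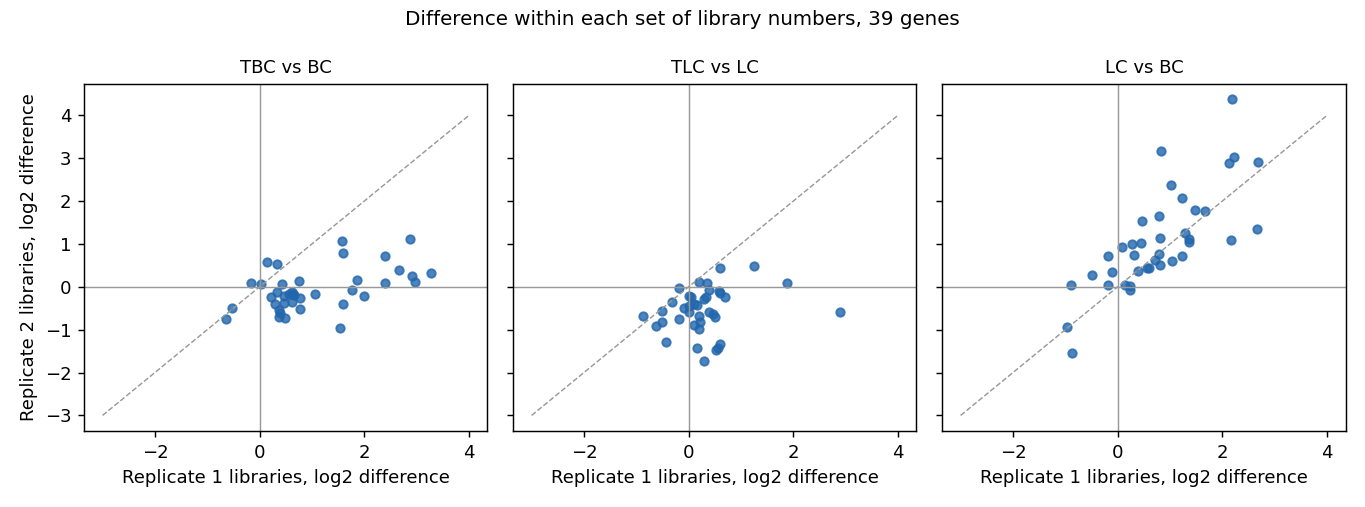
Log2 difference of each of the 39 members between 2 populations among replicate 1 libraries (horizontal axis) and among replicate 2 libraries (vertical axis), for TBC against BC, TLC against LC and LC against BC, with a dashed line of equality. Most points of LC against BC lie to the upper right of the origin, whereas TBC against BC is positive for 36 members on the horizontal axis and 16 on the vertical axis.

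The genes around the members in the interferon pathway were followed as 5 fixed lists. Of 21 interferon ligand genes, 11 had 0 counts in all libraries and 1 was abundant enough to test, Ifnk, with 57 counts in all and no call. Ifnb1, the type I interferon that many cells make first, had 4 counts in all, 1 each in both LC libraries and the first TBC and THC libraries, so differences in it were not detectable at this depth. Of 6 receptor genes 1 was higher in LC than in BC (16.7%, beside 11.5% of all tested genes), Ifnlr1, the specific chain of the type III interferon receptor. It stood at 54.7 and 79.5 CPM in LC, 22.9 and 34.4 in BC, 43.5 and 46.1 in TLC, 30.6 and 27.1 in THC and 22.4 and 21.9 in TBC. Its log2 difference was 1.22 between LC and BC (SE 0.26, adjusted p = 0.0048) and 1.02 between TLC and TBC (SE 0.26, adjusted p = 0.022), and every luminal library lay above every other. The call did not hold without the second LC library in LC against BC, or without any TLC or TBC library in TLC against TBC. Ifnar1 and Ifnar2, the chains of the type I receptor, passed in no comparison.

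Of 10 genes of receptor signalling, 1 was higher and 2 were lower in LC than in BC, a share of 30% beside 24% of all tested genes. Socs1, an inhibitor of JAK kinases, was lower in LC (log2 -2.42, SE 0.39, adjusted p = 0.00095) and in TLC against TBC (-1.93, SE 0.40, adjusted p = 0.0072). Socs3, a second inhibitor of this family, was lower in LC (-2.11, SE 0.41, adjusted p = 0.0032), in TLC against TBC (-2.20, SE 0.41, adjusted p = 0.0045) and in THC against BC (-1.52, SE 0.40, adjusted p = 0.045). Jak2, a kinase of the type II receptor, was higher in LC than in BC (0.81, SE 0.22, adjusted p = 0.019) and lower in TLC than in LC (-1.06, SE 0.22, adjusted p = 0.014). The Socs1 and Socs3 calls between LC and BC held without any 1 library. The Jak2 calls ended without the second BC or the second LC library in LC against BC, and without either TLC or the second LC library in TLC against LC. The Socs3 call between THC and BC passed only without the first BC library or either LC library.

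Of 18 tested genes of sensing upstream of interferon, 4 were higher and 1 lower in LC than in BC, a share of 27.8% beside 24% of all tested genes. Tlr3, the endosomal receptor for double-stranded RNA, stood at 47.7 and 58.0 CPM in LC, 16.1 and 14.7 in BC, 65.1 and 49.3 in TLC, 41.8 and 40.9 in THC and 18.6 and 15.5 in TBC, so LC, THC and TLC lay above BC and TBC, as for Ifih1. Its log2 difference was 1.78 in LC against BC (SE 0.23, adjusted p = 0.00023), 1.75 in TLC against TBC (SE 0.23, adjusted p = 0.00055), 1.43 in THC against BC (SE 0.24, adjusted p = 0.0063) and 1.28 in THC against TBC (SE 0.23, adjusted p = 0.012). Tlr4, the receptor for bacterial lipopolysaccharide, was higher in LC than in BC by 1.62 (SE 0.24, adjusted p = 0.00049) and Adar, an editor of double-stranded RNA, by 0.96 (SE 0.19, adjusted p = 0.0038). These 3 calls between LC and BC held without any 1 library, whereas Tlr3 in THC against TBC ended without any TBC or THC library and in THC against BC without the second BC library. Irf3, the factor that drives the first interferon transcripts, passed in no comparison.

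In a list of further interferon-stimulated genes, 65 of them tested, 12 were higher and 3 lower in LC than in BC, with a median of 0.15, below the 0.79 of the members. The share called, 23.1%, was close to the 24% of all tested genes. Trim30d, of a family of tripartite motif proteins, was higher in LC by 3.59 (SE 0.57, adjusted p = 0.00078), Slfn2, a schlafen family gene, by 2.45 (SE 0.49, adjusted p = 0.0037) and Ly6e, an inhibitor of viral entry, by 1.31 (SE 0.27, adjusted p = 0.0046). These 3 calls held in all 18 alternatives. Between TLC and LC, where no member passed, 1 of the 65 was higher, Slfn9, and 4 were lower. The share called was 7.69%, beside 8.22% of all tested genes, and the median was -0.34. The libraries were separated for 5 that were higher and 26 that were lower, where 24.3% and 24.9% of all tested genes were. Slfn9 stood at 9.97 and 14.1 CPM in LC, 2.74 and 5.87 in BC, 73.5 and 54.4 in TLC, 37.96 and 63.3 in THC and 16.1 and 28.1 in TBC. Within each layer both Tomato libraries lay above both control libraries. The log2 difference was 2.40 in TLC against LC (SE 0.40, adjusted p = 0.0047), 3.499 in THC against BC (SE 0.43, adjusted p = 0.0025) and 2.35 in the average over layers (SE 0.29, adjusted p = 0.0019), and these calls held in all 18 alternatives. Nlrc5, an activator of class I antigen presentation genes, was lower in TLC than in LC (-1.46, SE 0.28, adjusted p = 0.0095), a call that ended without the first TLC or the second LC library.

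Several of these pathway genes passed in further comparisons. Trim30d was also higher in THC than in BC (3.06, SE 0.58, adjusted p = 0.011) and TBC (2.71, SE 0.54, adjusted p = 0.019), and lower in TLC than in LC (-2.39, SE 0.51, adjusted p = 0.015). Its levels were 12.5 and 10.6 CPM in LC, 1.76 and 0.425 in BC, 2.63 and 1.82 in TLC, 7.75 and 8.17 in THC and 1.26 and 1.17 in TBC, so that only LC and THC were well above the rest. Between TLC and TBC, Lgals9, a lectin, was lower (-1.54, SE 0.31, adjusted p = 0.0061), Sp140, a nuclear body protein, was lower (-0.87, SE 0.23, adjusted p = 0.025), and Tlr4 (1.75, SE 0.24, adjusted p = 0.00073) and Slfn9 (1.52, SE 0.38, adjusted p = 0.022) were higher. Tlr4 was also higher in THC than in TBC (1.53, SE 0.25, adjusted p = 0.0073). In the average over layers, Tlr4 (-0.85, adjusted p = 0.013), Jak2 (-0.73, adjusted p = 0.019), Sp140 (-0.75, adjusted p = 0.017) and Nlrc5 (-0.89, adjusted p = 0.021) were lower in Tomato cells. The average-over-layers call of Tlr4 ended without the first or the second TBC library, and leaving out single libraries ended the Trim30d calls in THC and TLC.

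Between THC and TLC 3 of the 65 passed (4.62%, beside 1.61% of all tested genes, 1.52% higher), all guanylate-binding proteins higher in THC, namely Gbp9 (2.42, SE 0.35, adjusted p = 0.0078), Gbp4 (3.02, SE 0.46, adjusted p = 0.0098) and Gbp5 (3.51, SE 0.67, adjusted p = 0.027). Gbp4 stood at 6.39 and 4.38 CPM in LC, 12.9 and 5.19 in BC, 3.33 and 4.19 in TLC, 37.6 and 25.1 in THC and 10.7 and 9.53 in TBC. Both THC libraries lay above all others for Gbp4. All 3 calls ended without either TLC library, those of Gbp9 and Gbp5 also without the second THC library, and that of Gbp5 without the first. Summed endothelial, myeloid and fibroblast markers also lay higher in both THC libraries than in either TLC library. Pericyte markers overlapped, with 359 and 303 CPM in THC and 262 and 380 in TLC. Of these, Notch3 alone stood at 141 and 155 CPM in THC and 247 and 358 in TLC. Endothelial markers stood at 537 and 518 CPM in THC and 84.03 and 88.9 in TLC, myeloid markers at 289 and 187 against 113 and 122, and fibroblast markers at 837 and 1900 against 102 and 332. The part of these markers in the 3 calls was not tested.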

How the data were processed

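Gene counts of 10 libraries from sorted mouse mammary cells were deposited by the authors as 1 table per library. Reads were aligned with STAR and counted with HTSeq against GRCm38 (mm10), per the submitters' processing notes; versions, annotation and strandedness were not given in the sources used here. Libraries were made with the Ovation Solo RNA-Seq System, per the labels' protocols. The tables' rows for reads outside genes (no feature 12.6% to 30.8%, ambiguous 2.71% to 3.48%, not unique 14.6% to 43.0%) stayed out of totals and tests. Of 49671 IDs, 49412 matched GENCODE M21. Counts were scaled by TMM, filtered with edgeR's filterByExpr (19757 genes kept) and tested with edgeR 4.0.16 (R 4.3.3), quasi-likelihood, 1 fit over 5 populations, Benjamini-Hochberg adjusted. CPM values are counts over the total in the 19757 kept genes times the TMM factor. Each SE is the absolute log2 fold change over the square root of the test's F value. The fit was tested on simulated data. Alternatives used limma 3.58.1 (voom), DESeq2 1.42.0, other scaling, other filters, a replicate block and leaving out each library. Members and lists were chosen with earlier results of these data known. Values in each library are given for members called in any comparison and for the 2 most abundant of each role; pathway genes are named where called, up to 3 per list and comparison, with Ifnar1, Ifnar2, Irf3 and Ifnb1 always named; 1 further gene of that rule is not reported here. Rsad2, Isg15, Gbp3 and Rtp4 among the members were added after their values were seen.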

Additional observations from a re-analysis of the deposited data

How the results depend on the processing

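Across the alternatives no call turned its direction; medians over the members that changed sign without a library are given beside those comparisons. With no low-count filter the number of the 39 members called was 20 in LC against BC, 6 in TLC against TBC, 2 in TBC against BC, 1 in TLC against LC, 16 in THC against BC, 5 in THC against TBC, 4 in THC against TLC and 5 in the average over layers. DESeq2 called 5 in TLC against TBC, 1 in TBC against BC, 13 in THC against BC, 3 in THC against TBC, 1 in THC against TLC and 1 in the average over layers. limma-voom called 3 in THC against BC, and a fit to only the populations compared called 0 in THC against TBC. Leaving out 1 library at a time, the number called ran from 3 to 16 in LC against BC, 1 to 3 in TLC against TBC, 0 to 8 in THC against BC and 0 to 1 in THC against TBC, and was 0 in the other comparisons. The cause of these changes was not tested. Shares of all tested genes under these alternatives and under the replicate block below are not given here. The counts therefore do not compare the members with all genes.

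With the replicate number as a block, 15 members were called in LC against BC, 6 in TLC against TBC, 0 in TBC against BC, 1 in TLC against LC (Gbp2, lower), 14 in THC against BC, 4 in THC against TBC, 1 in THC against TLC (Gbp3), 2 in the average over layers (Gbp2 and Zbp1, lower) and 0 in the difference between layers. The labels state no pairing, and deviations of same-numbered libraries correlated at -0.01 to 0.42 over 10 pairs of populations. Depth limits the scarce members most: 3 counts equal 1.16 CPM in the first THC library and 0.202 CPM in the second. With 2 libraries a population, the fit leaves each gene 5 residual degrees of freedom, shared by all populations. The test also draws on the spread of the other genes.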
